A study of Mus musculus with 22 samples.

Results

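Bc1, Malat1, Meg3, Miat, Neat1 and Snhg11 are mouse genes whose main products are RNAs that are not translated. These 6 of the 17306 genes in the deposited table were chosen by symbol, with their share of the reads and their log2 CPM (reads on a gene scaled to the size of the library, on a log2 scale) in the 4 groups already known, so their levels, shares and spread are given as a description. All 22 libraries came from wildtype C57BL6J mice, 12 to 14 weeks old at collection, whose lumbar (L4 to L6) spinal cord was taken, per the study's methods as the quadrants on the injected side. Every mouse had 1 mg of sodium iodoacetate (MIA), which damages joint cartilage, injected into a knee to produce lasting joint pain. The question was how SAFit2, an inhibitor of the stress-related protein FKBP51, alters spinal gene expression when it is given early or late after that injury.

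Early SAFit2 (5 libraries) received SAFit2 at 100 mg/kg in a slow-release vesicular phospholipid gel (VPG) around the injury, on days 3 and 4 by the sample labels and on days -3 and 4 by the study's text. Early Vehicle (6 libraries) received the gel alone on those days. Late SAFit2 (5 libraries) and Late Vehicle (6 libraries) received the same gels on days 20 and 27, and all tissue was labelled as collected on day 30. The sample titles of the Early SAFit2 libraries read SAFit1 where their treatment labels read SAFit2. The batch label of each library is its timing, so the time of the gel and the batch cannot be told apart in any comparison of early with late libraries.

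BC1 RNA is a short transcript of RNA polymerase III that neurons carry into their dendrites, where it binds proteins of translation. MALAT1 and NEAT1 stay in the nucleus, MALAT1 at splicing speckles and NEAT1 as the scaffold of paraspeckles, and MIAT is a nuclear RNA that many neurons express. MEG3 is an imprinted RNA read from the maternal chromosome, and SNHG11 is the spliced RNA of a gene that hosts small nucleolar RNAs in its introns.

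Reads assigned to genes numbered 11352989 in the library with fewest and 24433349 in the library with most. The tissue labels were checked against marker genes. The neuronal list summed to 4746 to 6225 CPM per library, with Snap25 the most abundant of its genes at a mean log2 CPM of 11.54. The oligodendrocyte list summed to 14560 to 32070 CPM, led by Mbp at 13.08. The astrocyte list reached 2777 to 5493 CPM and the microglial list 130.6 to 201.2 CPM. Among defining markers, the motor neuron gene Mnx1 and the ependymal gene Tmem212 had mean log2 CPM below 0.

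The word abundant fits 1 of the genes in these libraries and the others only in part. Bc1 ranked 1 of the 17306 genes by mean share of reads, at 3.94%, and was the top gene in 13 of 22 libraries. The mitochondrial genes COX1 (2.01%), ATP6 (1.35%) and COX3 (1.29%) and the myelin gene Mbp (0.890%) also stood high in that order. Meg3 ranked 148 with 0.0610% of reads and Snhg11 ranked 417 with 0.0307%. Malat1 ranked 1514, Neat1 1693 and Miat 4462. Per kilobase of merged exons, among the 16699 genes with a GENCODE length, Bc1 ranked 1, Snhg11 1317, Meg3 1423, Malat1 2609, Neat1 6857 and Miat 7390. At 168 bases the Bc1 RNA is shorter than the usual library fragment, and how that affects its level per kilobase was not tested. The study's methods describe libraries made from isolated mRNA. How that step affected the reads on Bc1, Malat1, Meg3, Miat, Neat1 and Snhg11 was not tested. The shares and ranks therefore describe these libraries and need not reflect levels in the cord.

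Bc1 (Entrez gene 100568459) is a gene of 1 exon at chr7:144914470-144914637 on the plus strand of GRCm38. Its sequence, from GENCODE M21, is shown whole because an encoded run of 23 A residues, in capitals, divides the part that pairs into a hairpin from the unique 3′ end. The part before that run recurs in other genes named among the results.
Bc1: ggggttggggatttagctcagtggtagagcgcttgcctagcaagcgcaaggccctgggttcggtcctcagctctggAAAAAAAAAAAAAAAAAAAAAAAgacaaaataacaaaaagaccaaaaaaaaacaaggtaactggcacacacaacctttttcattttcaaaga
An A run of at least 20 bases occurs in the longest transcript of 313 of the matched genes (1.87%), and 1 at least as long as that of Bc1 in 198. The genome also holds Bc1-ps1, a pseudogene at chr7:93660238-93660555 on the minus strand that matches Bc1 at 92 of 101 aligned columns (91.1%); the table does not list it.

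The share of reads on Bc1 was 3.76%, 1.67%, 0.623%, 1.40% and 1.40% in the Early SAFit2 libraries. In Early Vehicle the lowest share was 0.942%, the median 1.68% and the highest 11.9%. In Late SAFit2 the shares were 4.88%, 5.14%, 3.31%, 8.81% and 16.5%. Late Vehicle ran from 1.32% through a median of 1.78% to 7.55%. Every Late SAFit2 library stood above the median of each of the other groups, and only replicate 6 of Late Vehicle reached past 3.43% among the late controls. The groups overlapped, with replicate 4 of Early Vehicle and replicate 6 of Late Vehicle far above the rest of their own groups. Among early libraries the mean share was 1.77% ± 1.18 (SD, n = 5) with SAFit2 and 3.62% ± 4.23 (n = 6) with gel alone; the late libraries averaged 7.73% ± 5.30 (n = 5) and 2.92% ± 2.39 (n = 6). Between 110708 and 1898504 reads fell on Bc1 in a library, so the 95% Wilson interval of a share reached at most 0.021 percentage points to either side. That interval covers counting error only, since reads copied by PCR are not independent molecules. The coefficient of variation of the Bc1 share over all 22 libraries was 102%.

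**Figure D1:**
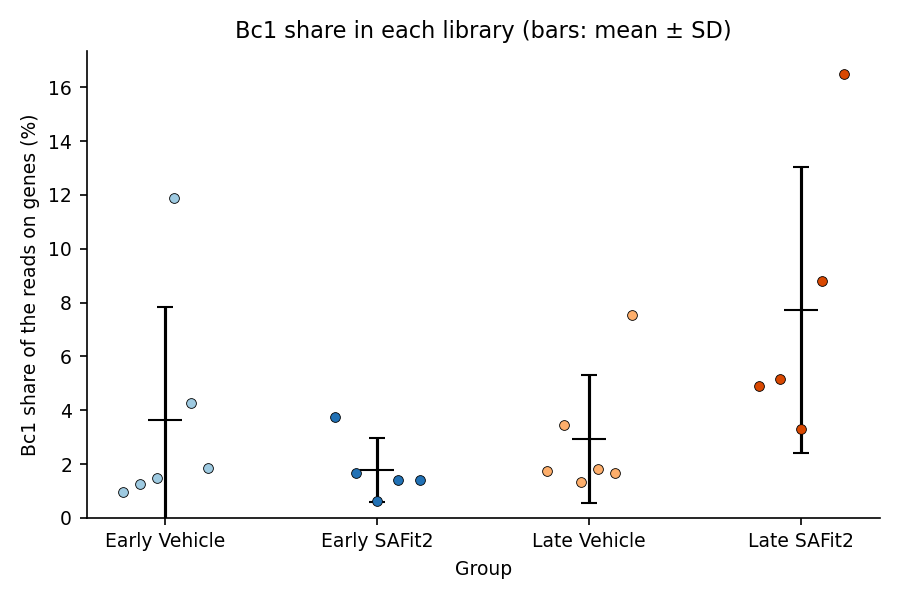
Share of reads on Bc1 (percent, vertical axis) in each of the 22 libraries by group, with group means and standard deviations. Late SAFit2 libraries lie between 3.31% and 16.5%, while replicate 4 of Early Vehicle (11.9%) and replicate 6 of Late Vehicle (7.55%) stand far above the rest of their groups.

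On the log2 CPM scale, Bc1 reached 15.16, 13.94, 12.44, 13.64 and 13.60 in Early SAFit2. Its Early Vehicle values had a lowest of 13.01, a median of 13.88 and a highest of 16.94. Late SAFit2 libraries gave 15.74, 15.83, 15.09, 16.61 and 17.70, and those of Late Vehicle a lowest of 13.64, a median of 14.10 and a highest of 16.35. Late SAFit2 held the highest value of all, and 2 of its 5 libraries exceeded every Late Vehicle library. The within-group SD of Bc1 was 1.15, which ranked 19 among the 10484 genes with a mean log2 CPM of at least 3. The median within-group SD over genes was 0.32. Malat1 (0.56), Meg3 (0.55), Snhg11 (0.54), Neat1 (0.48) and Miat (0.45) also varied more within groups than that median.

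Whether late SAFit2 altered expression was asked by comparing Late SAFit2 with Late Vehicle over 16765 genes with limma. A gene was called when its Benjamini-Hochberg adjusted p was under 0.05 and its fold change at least 1.2. That comparison called 2021 genes, 894 higher and 1127 lower, and 5791 had an unadjusted p under 0.05. That count is fragile: it was 62 without a variance trend, 0 with the compared libraries alone (5245 at an unadjusted p under 0.05) and 0 with a correction for GC content and length (2610). Without any of 7 single libraries (replicates 2, 4 and 5 of Late SAFit2, and 1, 3, 4 and 5 of Late Vehicle) at most 8 genes were called, which applies to every gene named as called in this comparison. The balance of directions turns with the scaling: plain library totals gave 210 higher and 2777 lower, and library sizes without Bc1 and mitochondrial genes 2244 higher and 626 lower. None of the 6 genes was among the 2021, against 12.1% of all genes tested (5.33% higher and 6.72% lower), and limma's voom weighting also called 0 of the 6. At an unadjusted p under 0.05, Bc1 and Malat1 passed. Since the 6 genes were chosen with their values in these groups known, their own tests are not independent of that choice and are given beside the values only. Bc1 was 1.65 log2 units above Late Vehicle (SE 0.61, 3.13-fold, limma adjusted p 0.065), with 5 of 5 libraries above the control mean and an exact two-sided permutation p of 0.028. The treated and control groups overlapped for all 6 genes, and did not overlap for 1.71% of genes tested. The call turns on single libraries: without replicate 6 of Late Vehicle the difference was 2.01 (adjusted p 0.014), without replicate 2 of Late Vehicle it was 1.76 (adjusted p 0.05), and without replicate 4 of Early Vehicle it was 1.65 (adjusted p 0.043). In the other direction it was 1.27 without replicate 5 of Late SAFit2 (adjusted p 0.18) and 1.14 with GC and length correction (adjusted p 0.27). In bulk tissue, more RNA per cell and more cells that hold the RNA cannot be told apart.

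Whether early SAFit2 left an effect at day 30 was asked by comparing Early SAFit2 with Early Vehicle, where limma called 0 genes (0%), as did voom, and 416 had an unadjusted p under 0.05. The Bc1 difference was -0.68 (SE 0.61, adjusted p 1, exact permutation p 0.41), and 4 of 5 treated libraries lay below the control mean. That mean (14.44) lies above the control median of 13.88, and without replicate 4 of Early Vehicle the difference was -0.19, and without replicate 1 of Early SAFit2 it was -1.04. None of the 6 genes was called or had groups without overlap, where 0.352% of genes tested had such groups. The early effect minus the late effect, the interaction, tests whether the response differs between the early and late sets. By the study's text, SAFit2 was still active at day 30 in the late set and no longer active in the early set. The interaction therefore cannot tell the time of dosing apart from the presence of the drug at collection. It also called 0 genes (0%) with limma and with voom, with 4167 at an unadjusted p under 0.05, but without replicate 6 of Late Vehicle it called 2515. For Bc1 it was -2.33 (SE 0.86, unadjusted p 0.012, adjusted p 0.13). Without that library it passed, at -2.69 (adjusted p 0.032). Late Vehicle against Early Vehicle, 6 libraries each, gave Bc1 a difference of 0.10 (SE 0.58, adjusted p 0.94, exact permutation p 0.89). The comparisons share control samples, since each vehicle group enters more than 1 of them.

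Several library measures differed along with the share of Bc1 in the late libraries. The 13 protein-coding mitochondrial genes took 8.08% of reads in Early SAFit2, 8.88% in Early Vehicle, 11.8% in Late SAFit2 and 8.01% in Late Vehicle. This mitochondrial share leaves out the ribosomal RNA gene mt-Rnr2, which took a mean of 0.940% of reads over all libraries. The relations of these measures to the Bc1 share are given as a description, since that share was used to choose the genes and the late groups differ in both measures. Over the 11 late libraries, the Bc1 share and the mitochondrial share had a Pearson r of 0.74 and a Spearman rho of 0.92, with r 0.89 without the libraries farthest from the median and 0.58 once group means were removed. Over the 11 early libraries that r was -0.05 and rho 0.42, with r 0.58 once replicates 4 and 5 of Early Vehicle were left out and -0.10 once group means were removed. Depth and the Bc1 share gave r -0.75 and rho -0.60 in late libraries, with r -0.52 without the farthest libraries and -0.72 once group means were removed. In early libraries that r was -0.46 and rho -0.16, with r -0.21 without replicates 4 and 5 of Early Vehicle and -0.66 once group means were removed. The mean log2 CPM of the neuronal markers and the Bc1 share gave r -0.84 and rho -0.91 in late libraries, with r -0.76 once group means were removed, and r -0.31 in early ones. That list does not move as one: in Late SAFit2 5 of its 10 genes were higher and 5 lower than in Late Vehicle, 1 of them called, and its summed level was higher, at 6120 CPM against 5631. The authors' scaling factors, from 0.774 to 1.14, were lower where Bc1 was high (r -0.79 early and -0.93 late, a description, since Bc1 enters their calculation). Of 13 mitochondrially encoded genes, 11 were called higher in Late SAFit2, where 5.33% of all genes were, with a median difference of 0.79 and under the same limits of the late count. Skeletal muscle markers summed to 119.2 CPM in replicate 3 and 88.82 in replicate 5 of Late SAFit2, with Myh4 the highest (72.06 and 50.19 CPM). The other Late SAFit2 libraries held 2.00 to 3.70 CPM, near the Late Vehicle mean of 2.90, and 0 of the 4 muscle genes were called. Over all libraries Myh4 and Ckm had mean log2 CPM below 0. With late SAFit2 the 4 ependymal genes all fell (median -0.67), and Foxj1 was called. Their mean sum was 21.94 CPM, against 37.18 CPM in the late controls. Of 3 endothelial genes 2 fell, with Cldn5 called, and 1 rose. Both calls are under the limits of the late count. The oligodendrocyte, astrocyte and microglial lists each had 0 genes called in that comparison. The part of these measures in the Bc1 difference was not tested.

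By correlation over the 22 libraries, the gene most like Bc1 among the 10483 compared was Lrrc17, with r 0.998 (0.998 within early libraries and 0.999 within late ones). Lrrc17 encodes a secreted leucine-rich repeat protein. Its 3′ untranslated region, at chr5:21575448-21575538 on the plus strand, matches bases 1 to 91 of Bc1 at 89 of 91 columns (97.8%) in the same direction. Between 2448 and 47474 reads were assigned to it, 20.3 to 26.6 per 1000 reads on Bc1 in every library. The highest of those ratios was 1.31 times the lowest, against a median of 37.2 over the 5596 genes with a mean log2 CPM of at least 5. No other of these genes kept a steadier ratio to Bc1, and the next, Akap5, spread 4.21 times. With late SAFit2, Lrrc17 stood 1.63 above its controls (SE 0.60, adjusted p 0.066), beside 1.65 for Bc1.

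Akap5, which encodes a synaptic anchoring protein for kinases, carries a match to Bc1 on the opposite strand in its 3′ untranslated region, at 102 of 110 columns (92.7%). Its r with Bc1 was 0.965 (0.925 early, 0.996 late), and it was called higher in Late SAFit2 by 1.41 (SE 0.44, adjusted p 0.043), a call under the limits of the late count. Rpl22l1, a ribosomal protein gene, had r 0.974 and shares no run of 25 bases with Bc1 outside its A-rich stretch. Among 16208 tested genes with a transcript sequence, 28 share such a run, and 15 are close copies over at least 80 columns. The others of the 15, whose values were looked at only after Lrrc17 was seen, include Mrpl33 (r 0.877), Kif3a (r 0.802) and Cnot3 (r -0.663). Of the 15, 8 had an r at or below 0 and 2, Lrrc17 and Akap5, an r above 0.9. Reads from stretches this alike can fit more than 1 gene, so how many of the Lrrc17 and Akap5 reads came from Bc1 is uncertain. The library kit keeps strand, but the strand setting used in counting is not given in the sources used here. The same uncertainty applies to Malat1, Meg3 and Miat, whose exons overlap the antisense genes Gm37376, Gm26906 and Gm26953, which the table does not list.

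**Figure D2:**
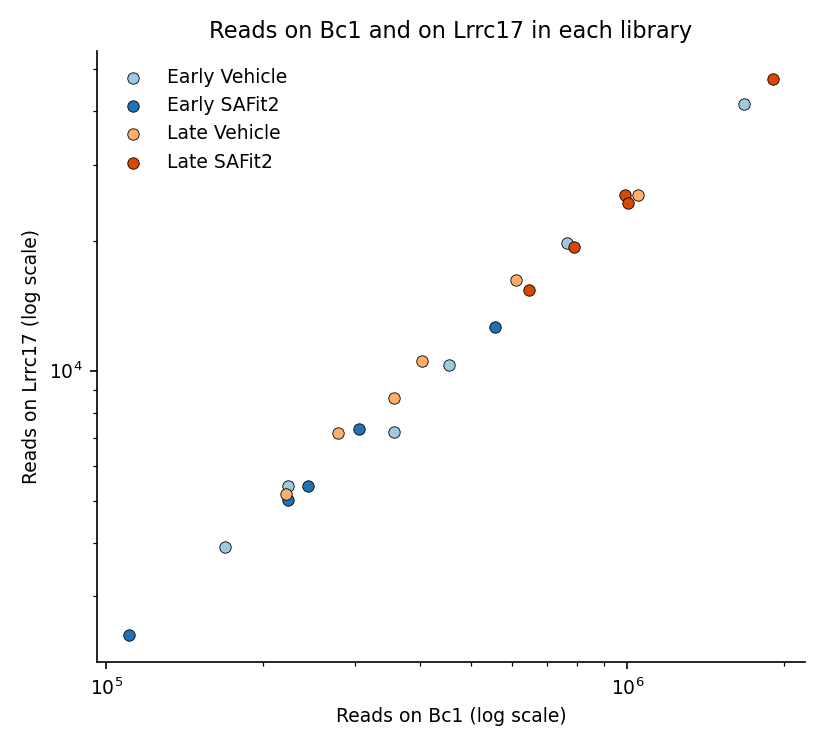
Reads assigned to Lrrc17 against reads assigned to Bc1 in each of the 22 libraries (log axes), coloured by group. Lrrc17 took between 20.3 and 26.6 reads per 1000 Bc1 reads in every library.

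Proteins that bind BC1 RNA or its partners in translation were followed as a list of 16 genes. In Late SAFit2, 7 of 16 were called higher and 0 lower, where 5.33% of all genes were called higher, with a median difference of 0.31 beside -0.048 over all genes. Ssb, whose protein La binds the 3′ ends of polymerase III transcripts, stood 0.75 higher (SE 0.19, adjusted p 0.033). Syncrip, an RNA-binding protein of transport granules, stood 0.49 higher (adjusted p 0.033), and Pabpc1, the poly(A)-binding protein, 0.37 higher (adjusted p 0.040, not called with voom). The correction for GC content and length, under which none was called, made the differences smaller, at 0.31 for Ssb, 0.06 for Syncrip and 0.21 for Pabpc1. Between vehicles, where list genes are named after their values were seen, Cyfip1 (0.30), Cyfip2 (0.44) and Eif4b (0.29) were called higher and Hnrnpa2b1 (-0.43) lower, 4 of 16 beside 9.11% of all genes, with a list median of 0.08 beside 0.007. The number of list genes called between vehicles was 1 to 5 when 1 library was left out, and 1 to 7 under other alternatives. The early comparison called 0 of the 16, with a median of -0.03.

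Genes of the polymerase III machinery, which transcribes Bc1, numbered 25. The late comparison called Polr3k higher (0.40, and 0.09 with GC and length correction) and Gtf3c5 lower (-0.45, and -0.17 with it), 2 of 25 beside 12.1% of all genes, with a list median of -0.11. With voom Gtf3c5 was not called, at -0.41. Between vehicles Polr3e (-0.77), Gtf3c2 (-0.48) and Bdp1 (-0.72) were called lower, 3 of 25 beside 5.82% of all genes, with a median of 0.04, and the early comparison called 0 of 25 at a median of -0.01. Of 10 other transcripts of polymerase III looked for, the table lists 1, Rn7sk, at a mean log2 CPM of -0.63. It differed by -0.84 in the early comparison, -0.48 in the late one and -0.63 between vehicles, and was called in none of them.

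Malat1 (Entrez gene 72289), the speckle RNA, lies at chr19:5795690-5802672 on the minus strand, and Neat1 (Entrez gene 66961), the paraspeckle scaffold, at chr19:5824708-5845478 on the same strand. The longest GENCODE transcripts have 1 exon each, of 6983 and 20771 bases. Their 3′ stretches are shown because both RNAs end in an encoded A-rich tract that folds back on U-rich stretches in place of an added tail. How far RNAs with such an end were kept when mRNA was isolated for the libraries was not tested. The printed parts are chr19:5795952-5796029 for Malat1 and chr19:5824708-5824777 for Neat1, from GENCODE M21, with the tract in capitals. The Malat1 part, bases 6644 to 6721 of 6983, runs past the tract and stops before the annotated end of the transcript.
Malat1: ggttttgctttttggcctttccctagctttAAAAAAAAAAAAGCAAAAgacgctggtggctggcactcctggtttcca
Neat1: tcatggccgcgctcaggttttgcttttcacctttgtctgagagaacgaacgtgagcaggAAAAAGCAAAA
The letters AAAAAGCAAAA, searched on the transcript strand, occur in the longest transcript of 179 matched genes (1.07%), Snhg11 among them.

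Malat1 log2 CPM was 7.60, 7.95, 6.29, 7.47 and 6.88 in Early SAFit2. In Early Vehicle its lowest value was 6.76, its median 7.38 and its highest 8.71. Late SAFit2 libraries gave 5.86, 6.23, 5.88, 6.40 and 6.73, and Late Vehicle a lowest of 5.13, a median of 5.45 and a highest of 6.45. Early libraries stood above late ones with an overlap, since the lowest early library lay 0.44 below the highest late library. Late Vehicle differed from Early Vehicle by -1.98 (SE 0.28, 3.94-fold lower, adjusted p 3.6e-05), with 6 of 6 late libraries below every early one. Late SAFit2 was 0.66 above Late Vehicle (SE 0.29, adjusted p 0.11, exact permutation p 0.039), with 5 of 5 libraries above the control mean. Without replicate 6 of Late Vehicle that Malat1 difference was 0.84 and passed (adjusted p 0.027), as did the interaction, at -1.13 (adjusted p 0.049) against -0.96 (adjusted p 0.16) with all libraries. In the other direction, the late difference fell to 0.54 over left-out libraries and to 0.42 under other alternatives (limma adjusted p up to 0.51). The interaction came as near 0 as -0.73 under those alternatives (adjusted p up to 0.46). The early difference was -0.29 (SE 0.29, exact permutation p 0.49).

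Neat1 log2 CPM was 7.57, 8.20, 6.93, 7.69 and 7.45 in Early SAFit2, and its Early Vehicle values had a lowest of 7.02, a median of 7.39 and a highest of 8.30. Late SAFit2 gave 3.43, 4.70, 3.99, 4.62 and 4.50, and Late Vehicle 3.46, 4.12 and 4.65 as lowest, median and highest. No late library came within 2.23 log2 units of an early one, while the treated and control groups of each timing overlapped. Late Vehicle differed from Early Vehicle by -3.45 (SE 0.24, 10.9-fold lower, adjusted p 3.3e-10). The treatment differences were 0.02 in early libraries (exact permutation p 0.95) and 0.15 in late ones (exact permutation p 0.64).

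Splicing factors and kinases of nuclear speckles were followed as a list of 20. Between vehicles 12 of 20 were called lower in Late Vehicle and 0 higher, where 5.82% of all genes were called lower, with a median of -0.45 beside 0.007 over all genes. The kinases Clk1 (-1.91) and Clk4 (-1.31), which release splicing factors from speckles, and Pnisr (-1.79) fell most, as named after their values were seen. Late SAFit2 had Srsf10 (0.57, and 0.28 with GC and length correction) and Srsf1 (0.49, and 0.18 with it) called higher than Late Vehicle, with a list median of 0.26, and the early comparison called 0 with a median of -0.07. In the late comparison with voom, Srsf1 was not called, at 0.49. Of 16 paraspeckle proteins, Cpsf6 (-0.53) and Tardbp (-0.51) were called lower between vehicles, beside 5.82% of all genes, at a median of -0.04. The late comparison called Tardbp higher (0.39, and 0.13 with GC and length correction) at a median of 0.16, and the early one called 0 at -0.03. Tardbp was not called late with voom, at 0.39.

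Meg3 (Entrez gene 17263) lies at chr12:109541001-109571726 on the plus strand, with 11 GENCODE transcripts and 2 microRNA genes within it. Its log2 CPM was 9.63, 10.39, 8.46, 10.19 and 10.15 in Early SAFit2, and 9.49, 9.80 and 10.90 as lowest, median and highest in Early Vehicle. Late SAFit2 libraries gave 6.55, 6.62, 6.32, 7.02 and 6.53, and Late Vehicle 6.14, 6.54 and 7.15 as lowest, median and highest. A gap of 1.32 separated the lowest early library, replicate 3 of Early SAFit2, from the highest late one. Late Vehicle differed from Early Vehicle by -3.51 (SE 0.27, 11.4-fold lower, adjusted p 1.9e-09). The treatment differences were -0.29 in early libraries (exact permutation p 0.52) and 0.06 in late ones (exact permutation p 0.77).

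Meg3 belongs to the Dlk1-Dio3 imprinted domain, whose noncoding RNAs come from the maternal chromosome and whose protein-coding genes from the paternal one. The table lists 5 of 6 other genes of the domain, without Dio3. The maternal RNAs Rian (-1.07, SE 0.14, adjusted p 1.9e-05) and Mirg (-2.88, SE 0.39, adjusted p 3.1e-05) were called lower in Late Vehicle, 2 of 5 beside 5.82% of all genes. Dlk1 (0.18) and Begain (0.16) were not called, and the list median was -0.19. The late comparison called 0 of 5, with a median of -0.30, and the early one 0 with a median of 0.04.

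Miat (Entrez gene 330166) lies at chr5:112213228-112229395 on the minus strand, with 6 GENCODE transcripts. Its log2 CPM was 5.96, 6.65, 5.48, 6.50 and 6.53 in Early SAFit2, and 5.69, 5.97 and 7.15 as lowest, median and highest in Early Vehicle. Late SAFit2 gave 2.95, 3.02, 2.33, 2.35 and 2.40, and Late Vehicle 2.22, 2.86 and 3.37. The lowest early library stood 2.11 above the highest late one, and 46 reads in replicate 5 of Late SAFit2 were the fewest any of the 6 genes had in a library. Late Vehicle differed from Early Vehicle by -3.37 (SE 0.23, 10.3-fold lower, adjusted p 2.7e-10). The treatment differences were 0.07 early (exact permutation p 0.82) and -0.18 late (exact permutation p 0.46).

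Snhg11 (Entrez gene 319317) lies at chr2:158375638-158386145 on the plus strand and hosts 2 small nucleolar RNA genes. GENCODE M21 classes it as protein-coding and RefSeq as a long noncoding RNA. Its log2 CPM was 8.75, 9.42, 7.54, 9.14 and 9.15 in Early SAFit2, and 8.50, 8.93 and 10.14 as lowest, median and highest in Early Vehicle. Late SAFit2 gave 4.73, 5.06, 4.94, 5.57 and 4.92, and Late Vehicle 4.60, 4.76 and 5.16. The gap between early and late libraries was 1.96, and no early library overlapped a late one. Late Vehicle differed from Early Vehicle by -4.32 (SE 0.27, 20.0-fold lower, adjusted p 3.2e-11), the largest fall among the 16765 genes tested. Late SAFit2 was 0.25 above Late Vehicle (adjusted p 0.55, exact permutation p 0.15), and the early difference was -0.32 (exact permutation p 0.48).

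Of the other small nucleolar RNA host genes, 17 of 18 are in the table, and 7 were called lower between vehicles with 0 higher, beside 5.82% lower and 3.29% higher over all genes. Their median was -0.47. Snhg20 (-2.05) and Snhg7 (-1.78), chosen after their values were seen, fell most, and Snhg14, the host in the Prader-Willi domain, by -0.99. Gas5 (-0.15) and Snhg8 (-0.05) were not called. The late comparison called 0 of 17 at a median of 0.17, and the early one 0 at -0.20.

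**Figure D3:**
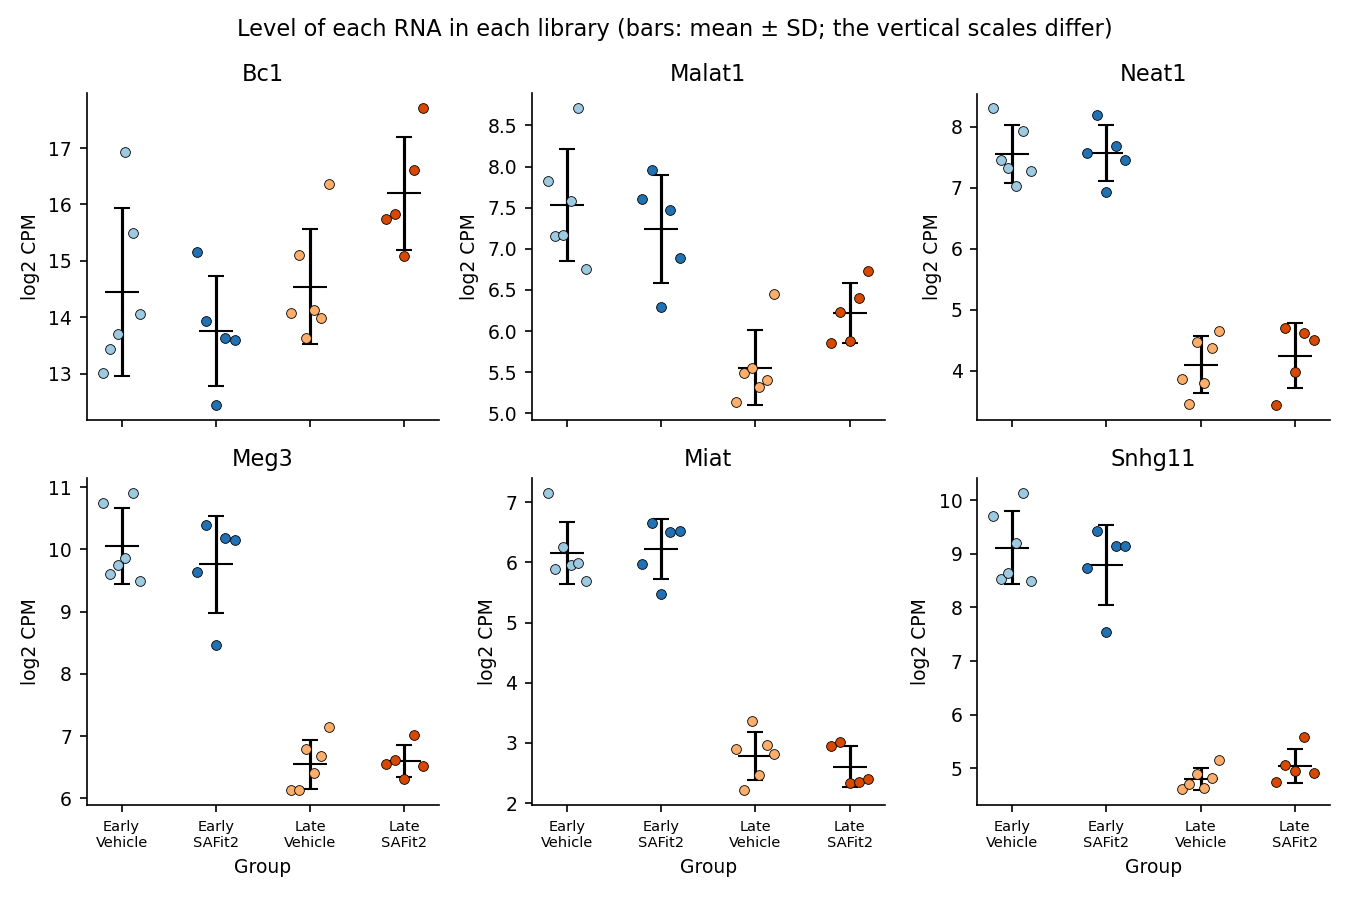
Log2 CPM of each of the 6 genes in the 22 libraries by group, with group means and standard deviations. Meg3, Miat, Neat1 and Snhg11 leave gaps of 1.32 to 2.23 between early and late libraries, while Bc1 overlaps between all groups.

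Late Vehicle against Early Vehicle shows how controls differ between the early and late sets, with no SAFit2 in either. It called 1527 of 16765 genes, 552 higher and 975 lower. All genes of the group but Bc1 were called, 5 of 6, and each was lower, where 9.11% of all genes were called, 3.29% higher and 5.82% lower. The 6 late libraries lay below all 6 early ones for these 5, where the groups did not overlap for 4.92% of genes and did so in that direction for 3.6%. The exact permutation p was 0.0022 for each of the 5, the smallest that 924 splits can give. Since the genes were chosen with their levels in these groups known, nothing further is read from that count. Several lists of cell type markers differed between the same controls. Red blood cell genes, led by Hba-a2 and without Hbb-bt in the table, summed to a mean of 468.1 CPM in Early Vehicle and 705.9 in Late Vehicle (4 of 4 higher, Hbb-bs called). The astrocyte list went from 3569 to 4408 CPM (5 of 5 higher, Slc1a2 called), and the microglial list from 155.0 to 184.4 CPM (4 of 5 higher, 0 called). Of 10 neuronal genes, Tubb3 and Slc32a1 were called higher, with 5263 and 5631 CPM in sum. Endothelial genes were higher in 3 of 3 (1 called), and 1 of 6 oligodendrocyte genes was called higher. The part of these markers in the difference was not tested. Over all libraries, late below early without overlap held for 4 of the 6, and for 1.39% of all genes; the reverse order held for 0.31%.

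The same difference in treated libraries, Late SAFit2 minus Early SAFit2, was -1.02 for Malat1, -3.16 for Meg3, -3.61 for Miat, -3.32 for Neat1 and -3.76 for Snhg11, and 2.44 for Bc1. Together the 5 genes other than Bc1 took 0.204% of reads in Early SAFit2 and 0.234% in Early Vehicle, and 0.0204% in Late SAFit2 and 0.0196% in Late Vehicle. Within the early set, replicate 3 of Early SAFit2 was the lowest library for each of the 6 genes.

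**Figure D4:**
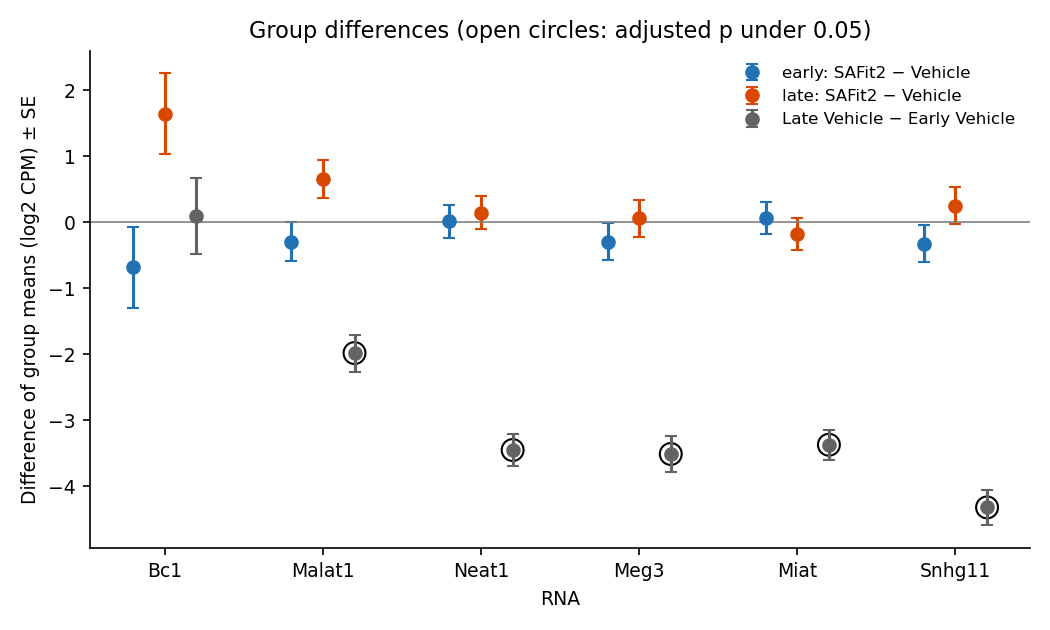
Log2 differences (vertical axis) with standard errors for the 6 genes, for SAFit2 against vehicle in early and in late libraries and for Late Vehicle against Early Vehicle; open circles mark an adjusted p under 0.05. Between vehicles Malat1 (-1.98), Neat1 (-3.45), Miat (-3.37), Meg3 (-3.51) and Snhg11 (-4.32) lie well below 0, and Bc1 (0.10) does not.

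Other long noncoding RNAs were followed as a list of 24, of which the table holds 19. Between vehicles 6 of 19 were called lower and 0 higher, beside 5.82% lower over all genes, with a median of -0.45. Of these, chosen after their values were seen, Mir124a-1hg, the host of a neuronal microRNA, differed by -4.08 (SE 0.30, adjusted p 9e-10), and Firre, an X-linked RNA that organises chromatin, by -3.91 (SE 0.24, adjusted p 3.2e-11). Ftx (-3.27) and Kcnq1ot1 (-1.80), which act on the X chromosome and on an imprinted domain, were also lower, as were Rmst (-1.64) and Sox2ot (-0.58). The late comparison called Tug1 higher (0.51) and Mir9-3hg (-0.71) and Firre (-0.81) lower at a median of 0.16, and the early one called 0 at -0.17. With GC and length correction none of those late calls held, at 0.10 for Tug1, -0.53 for Mir9-3hg and -0.67 for Firre. Over the 22 fits that left out 1 library, Tug1 and Mir9-3hg lost their calls in 7 each and Firre in 10. With voom Mir9-3hg (-0.64) and Firre (-0.81) were not called. Ranked by the gap between early and late libraries, a ranking chosen after its values were seen, Firre (2.67) and Mir124a-1hg (2.31) came before Neat1, Miat and Snhg11. Protein-coding Lime1 (1.62), Leng8 (1.32), Trank1 (1.31) and Wsb1 (1.10) stood beside Meg3 in that order.

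**Figure D5:**
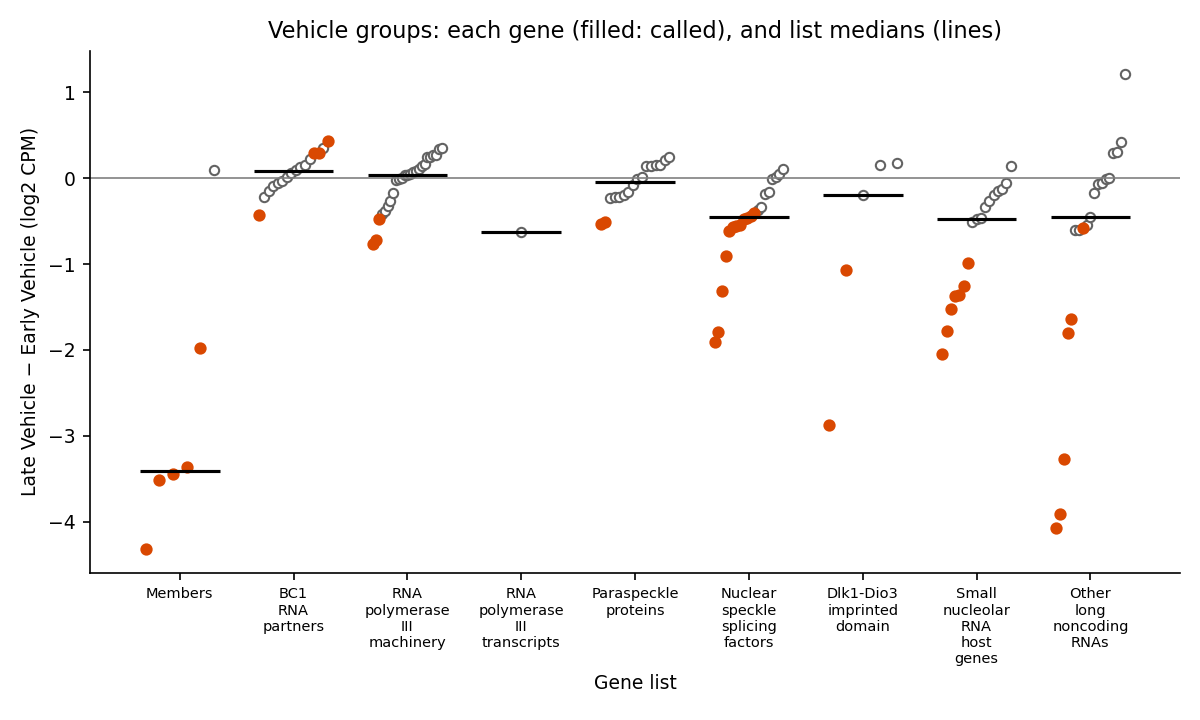
Log2 difference between Late Vehicle and Early Vehicle for the 6 genes (first column) and each gene of the lists, filled where called, with lines at the medians. The medians of nuclear speckle factors (-0.45), small nucleolar RNA hosts (-0.47) and other long noncoding RNAs (-0.45) lie below the median of 0.007 over all genes tested.

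By GENCODE class, a division chosen after its values were seen, 76 of 733 long noncoding genes (10.4%) were called between vehicles, 1 higher and 75 lower. Of 15032 protein-coding genes 1364 (9.07%) were called, 538 higher and 826 lower. A fall of at least 4-fold occurred in 28 long noncoding genes (3.82%) and in 72 protein-coding genes (0.479%). Among genes with a mean log2 CPM of at least 3, 14 of 80 long noncoding genes (17.5%) and 1067 of 10185 protein-coding genes (10.5%) were called. Without those of the 6 genes that GENCODE classes as long noncoding, the former were 10 of 75 (13.3%). The counts of 4-fold falls also include some of the 6 genes. At that mean level and without the 6 genes, such a fall occurred in 2 of 75 long noncoding genes (2.67%). It occurred in 7 of 10184 protein-coding genes (0.0687%). Scaling shifts the balance of directions: with plain library totals 76 of 1419 called genes were higher in Late Vehicle, with centring on the median gene 1198 of 2014, and with a correction for GC content and length 1974 of 3013, while the 5 genes stayed called and lower under each. Plain totals moved the median of all genes to -0.22 in the late comparison and 0.26 in the interaction, and library sizes without Bc1 and mitochondrial genes moved the latter to -0.14.

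For 4 of the 6 genes no early library overlaps a late one, so relations among the 6 genes were computed within the 11 early and the 11 late libraries, 30 in all. They are a description, since the genes were chosen by these values. Bc1 and Malat1 had r 0.93 and rho 0.84 in late libraries, with r 0.87 without the libraries farthest from the median and 0.88 once group means were removed. Their r in early libraries was 0.52 and rho 0.47. Meg3 and Snhg11 had r 0.98 and rho 0.95 in early libraries, and r 0.95 without the farthest. In late libraries their r was 0.76 and rho 0.70, with r 0.81 once group means were removed. That late r was 0.56 without the farthest, so the relation there rests partly on those libraries. Malat1 and Snhg11 had r 0.89 early (rho 0.86, r 0.70 without the farthest) and 0.72 late (rho 0.85, r 0.84 without the farthest). For Malat1 and Meg3 r was 0.85 early (rho 0.82, r 0.61 without the farthest) and 0.58 late (rho 0.50). Bc1 with Meg3, Miat, Neat1 or Snhg11 had r from -0.42 to 0.57 in the early and late sets.

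The genes most like each of the other 5 over the 22 libraries, among the 10483 compared, are named with their r within early and within late libraries, as a description. Malat1 was most like Clk4 (r 0.982, 0.976 early, 0.901 late), Zc3h11a (0.971, 0.956, 0.845) and Clk1 (0.961, 0.944, 0.795). Meg3 was most like Snhg11 (0.995, 0.981, 0.763) and the noncoding A330023F24Rik (0.990, 0.970, 0.584), and Snhg11 most like Meg3 and then A330023F24Rik (0.988, 0.933, 0.542). Miat was most like the RNA helicase gene Ddx17 (0.981), but r was 0.854 within early and 0.289 within late libraries. Neat1 was most like Meg3 (0.980, 0.814, 0.736). Malat1 had r of 0.795 or more with the kinases Clk4 and Clk1 within each set. Miat had r of 0.327 or less with Ddx17 and Firre (0.979, 0.861, 0.327) within the late set. Since these genes were picked by r over the same libraries, high r within a set is favoured by that choice.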

How the data were processed

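The deposited table holds log2 CPM that the authors computed from gene counts; the submitters' notes name Trimmomatic, HISAT2, edgeR and mm10, and the methods featureCounts and TMM scaling. Reads were worked back from a prior count of 2 and were whole within 0.02. Genes with log2 CPM of at least -1 in at least 5 libraries were tested (16765) with limma 3.58.1 in R 4.3.3, by 4 group means and a variance trend on mean level; tests are two-sided. Python 3.11.15, numpy 2.4.6, pandas 2.3.3, scipy 1.17.1, matplotlib 3.10.9 and Biopython 1.88 did the rest, with GENCODE M21. The code was tested on simulated data. Genes named are the 6 members, the 10 of highest mean share, the 3 genes most correlated with each, and, for each list, up to 3 genes called in each direction in the late comparison by lowest p, otherwise up to 4 of highest mean level; further names were chosen after their values were seen. The members and the 8 gene lists were chosen with earlier results of these data known. Depth limits the counting precision of shares.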

Additional observations from a re-analysis of the deposited data

Results flagged for a closer look

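Each of the 6 genes was tested in each group, by share and by log2 CPM, for a library far from the others, 48 tests in all. Of these, 5 found one. The genes were chosen with these values known, so that number is not compared with chance. Replicate 6 of Late Vehicle had a Malat1 log2 CPM of 6.446, where the next highest was 5.546, and a Malat1 share of 0.007849% of reads. The same library had a Bc1 share of 7.554%, where the next was 3.432%. Replicate 4 of Early Vehicle had a Bc1 share of 11.89%, where the next was 4.278%. Replicate 1 of Early Vehicle had a Miat share of 0.01615%. These measures are related, since 3 of the 5 come from 1 library, and their cause was not tested.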

How the results depend on the processing

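Under 15 alternatives and 22 fits that left out 1 library each, Malat1, Meg3, Miat, Neat1 and Snhg11 were called lower in Late Vehicle every time, and the early comparison called 0 genes in each. The late count of 2021 was 62 without a variance trend, 876 with voom, 0 with the compared libraries alone (5245 at an unadjusted p under 0.05), 3157 with a replicate block, 0 with GC and length correction (2610), 0 with that correction and the block (2608), and 5317 without both Vehicle libraries of highest Bc1 share. Leaving out 1 library gave 1 to 4975: 1 without Late SAFit2 2 or 5 or Late Vehicle 1, 3, 4 or 5, 8 without Late SAFit2 4, 1193 without Early SAFit2 4, 1320 and 1324 without Early Vehicle 2 and 6, 3538 without Late SAFit2 1, 3794 without Late Vehicle 2 and 4975 without Late Vehicle 6. The early minus late count of 0 was 2 without a trend, 2071 without both Vehicle libraries, and 0 to 2515 over left-out libraries (2515 without Late Vehicle 6). The vehicles count of 1527 was 3013 with GC correction, 2915 with correction and block, 2308 without both Vehicle libraries, and 944 (without Late Vehicle 1) to 2485 (without Late Vehicle 6). The Bc1 late difference passed at 1.79 with the replicate block and ranged from 1.27 to 2.01 over left-out libraries, passing without Early Vehicle 4, Late Vehicle 2 or Late Vehicle 6; with GC correction it was 1.14 (adjusted p 0.27). Bc1 early minus late ranged from -2.69 to -1.83, passing without Late Vehicle 6. Without both Vehicle libraries Bc1 was 2.01 late and -2.19 early minus late; these libraries were picked for their Bc1 share, so that Bc1 then passes is favoured by construction and nothing is read from it. Bc1 between vehicles ranged from -0.26 to 0.60, below 0 without Early Vehicle 1, 2 or 3 or Late Vehicle 2 or 6, and Bc1 early from -1.04 to -0.19. Differences near 0 changed sign. Early, Miat was -0.04 with GC correction and -0.05 with block and correction, and Neat1 -0.03 with GC correction, -0.03 with library sizes without Bc1 and mitochondrial genes, and -0.09 without both Vehicle libraries. Late, plain totals gave Meg3 -0.13 and Neat1 -0.04, and Miat was 0.20 with GC correction and 0.19 with block and correction. Early minus late, Miat was -0.24 with GC correction and -0.24 with block and correction, and Neat1 0.10 with plain totals. Left-out libraries gave Meg3 early -0.45 to 0.03, Miat early -0.04 to 0.27, Neat1 early -0.14 to 0.17, Meg3 late -0.05 to 0.18 and Neat1 early minus late -0.33 to 0.03. Without a change of sign, they gave Malat1 early -0.47 to -0.06 and Snhg11 early -0.48 to -0.0. In each case the cause was not tested. The replicate block assumes that numbers pair libraries: residuals of 10 pairs had r from -0.236 to 0.317, so the numbers do not show a pairing. A prior count of 2 equals the deposited values, so 0.5 was added after seeing the data, as were the uncorrected genes with a GC value and the fit without both Vehicle libraries. Depth limits Miat most, at 46 reads in 1 library.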
